A study of Mus musculus with 8 samples.

Results

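CpG-dense DNA that lies far from both ends of every annotated gene was examined in nephron progenitors of the embryonic mouse kidney. The genome was cut into 1 kb tiles. A tile was taken when at least 30 CpG positions had been seen in it, when it lay at least 5 kb from the start and the end of every RefSeq gene, and when at least 3 of its CpGs had at least 10 reads in all 8 libraries. The rule gave 1091 autosomal tiles, called orphan tiles below, of 36513 tiles that could be measured, or 8.94% of the 12199 measured tiles with at least 30 CpGs. Of the 1091, 766 lay inside a gene (intragenic, in 619 different host genes) and 325 lay between genes (intergenic). The rule reads no methylation level, although it was set with earlier results of these data known.

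The libraries were made by reduced representation bisulfite sequencing (RRBS), in which DNA cut at CCGG sites is enriched for CpG-rich fragments and unmethylated cytosines are converted, so that the share of reads still showing a cytosine is the methylation level. The restricted group held 4 libraries from embryos of CD1 dams that were given 70% of the average daily food intake, once a day, during pregnancy. The unrestricted group held 4 libraries from embryos of dams with no limit on food. All embryos, in both groups, were heterozygous for the Six2-EGFP/cre transgene (Six2 Cre+/tg) on the outbred CD1 background, from transgenic fathers and wild-type mothers. Both parents were 8 to 10 weeks old. The embryos were at stage E17.5 and their sexes were not analysed apart. The GFP-positive cells were sorted from dissociated kidneys, so the cells are those in which the Six2 promoter of the transgene is active. Whether a library is 1 litter or a pool is not given in the sources used here, and p-values therefore measure the spread between these libraries only. Methylation data hold no expression markers with which to check the cell type.

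CpG islands are stretches in which CpGs, elsewhere depleted from mammalian DNA because methylated cytosines mutate easily, have stayed frequent. Most lie at gene starts and stay unmethylated, and proteins with CXXC domains bind their unmethylated CpGs. So-called orphan islands lie away from annotated starts, within gene bodies or between genes, and some of them are alternative or unannotated promoters or become methylated during development, as DNA inside transcribed genes commonly is.

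Part of the intragenic tiles overlap the start of a further transcript of their host gene, or the bases beside it. RefSeq start windows, from 250 bases before to 50 after a transcript start on GRCm38.p6, overlapped 232 of the 738 intragenic tiles looked up, with 265 different windows. The 250 bases before 5 of these starts are printed because they show what an orphan tile can look like. Dnmt3a (chr12:3806910-3807159, plus strand), Arhgap32 (chr9:32032053-32032302, plus strand) and Runx3 (chr4:135152295-135152544, plus strand) overlap tiles with 116 to 136 seen CpGs. The Dnmt3a bases begin before their tile, which starts at 3807001. Pax2 (chr19:44755502-44755751, plus strand) is a kidney regulator, and Tlcd4 (chr3:121263341-121263590, minus strand) was the most methylated measured window. CpGs are in capitals, and the sequences are RefSeq's.
Dnmt3a: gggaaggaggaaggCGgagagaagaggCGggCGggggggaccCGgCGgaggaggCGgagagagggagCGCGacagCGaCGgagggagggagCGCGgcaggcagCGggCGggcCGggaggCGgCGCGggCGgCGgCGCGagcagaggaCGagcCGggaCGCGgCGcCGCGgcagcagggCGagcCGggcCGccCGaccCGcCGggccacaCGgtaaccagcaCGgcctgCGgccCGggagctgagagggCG
Arhgap32: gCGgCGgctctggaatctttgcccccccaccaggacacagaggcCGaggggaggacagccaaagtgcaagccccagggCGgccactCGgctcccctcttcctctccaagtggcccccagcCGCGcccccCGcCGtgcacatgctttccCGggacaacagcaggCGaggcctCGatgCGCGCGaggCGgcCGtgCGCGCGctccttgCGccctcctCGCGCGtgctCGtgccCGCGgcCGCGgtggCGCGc
Runx3: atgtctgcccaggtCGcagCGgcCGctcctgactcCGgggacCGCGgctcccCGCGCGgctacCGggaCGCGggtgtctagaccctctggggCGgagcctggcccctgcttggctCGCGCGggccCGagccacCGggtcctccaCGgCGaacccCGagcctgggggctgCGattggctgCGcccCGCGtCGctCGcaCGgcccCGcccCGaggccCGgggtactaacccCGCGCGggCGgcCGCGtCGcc
Pax2: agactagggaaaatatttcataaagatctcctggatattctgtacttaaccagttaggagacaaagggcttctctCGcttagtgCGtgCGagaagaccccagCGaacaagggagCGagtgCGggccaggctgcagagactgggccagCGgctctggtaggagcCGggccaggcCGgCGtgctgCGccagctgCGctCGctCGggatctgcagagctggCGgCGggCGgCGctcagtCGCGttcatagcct
Tlcd4: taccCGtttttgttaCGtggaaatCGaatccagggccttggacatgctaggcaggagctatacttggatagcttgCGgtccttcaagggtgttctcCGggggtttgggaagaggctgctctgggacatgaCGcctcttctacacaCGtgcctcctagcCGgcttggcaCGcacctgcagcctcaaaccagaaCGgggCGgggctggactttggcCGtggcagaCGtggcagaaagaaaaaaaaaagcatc
The 250 bases hold 40 CpGs for Dnmt3a, 31 for Arhgap32, 38 for Runx3, 20 for Pax2 and 13 for Tlcd4. The median over the 265 windows in orphan tiles was 22 CpGs, against 6 over all 31396 autosomal start windows, and the sequence CCGG (its own reverse complement, so the same on both strands) occurred in 92.5% of the windows in orphan tiles and 47.8% of all windows. Since tiles were chosen for many CpGs and for RRBS reads, both contrasts follow from the rule. All 6190 CpG positions of the deposited files that fall in these windows are CG in the RefSeq sequence, which matches the coordinates of the files to this build.

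The printed windows had few methylated reads, apart from Tlcd4. In the window of Dnmt3a, a de novo DNA methyltransferase, 8 CpGs were measured and every restricted library was at 0%, as were 3 of the 4 unrestricted libraries, with 0.465% in the other. In the window of Arhgap32, a GTPase activating protein, 21 CpGs gave 0% in all 4 restricted libraries, and 0.340, 0.216, 0.318 and 0% in the unrestricted libraries. The 14 measured CpGs at the Pax2 start, a paired box factor needed for kidney formation, gave 0, 0, 0.568 and 0.431% in the restricted and 0.179, 0, 0 and 0% in the unrestricted libraries. The 3 measured CpGs of the Runx3 window were at 0% in all 8 libraries, with 69 to 219 reads per library summed over these CpGs. The Tlcd4 window, with 11 measured CpGs, stood at 11.5, 18.8, 12.2 and 12.5% in the restricted libraries and at 14.2, 11.7, 12.8 and 8.92% in the unrestricted libraries, and the groups overlap. A further Tlcd4 window in the same tile (121263118 to 121263417) averaged 0.0237% over 18 CpGs. Methylation thus changed within 1 tile.

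Depth ran from 16045992 to 37305007 reads over CpG cytosines per library. An orphan tile had a median of 43 seen and 14 measured CpGs, and its reads per library ranged from 30 to 30939 with a median of 444. Reads of a tile or window are summed over its measured CpGs, so a read that covers several CpGs counts at each of them. Before the minimum of reads was applied, 2063 tiles met the rules on CpG number and distance, so the tiles described are those that RRBS reads reach well. Of the 1091, 41 lie on chromosome 18, 28 of them intragenic. They enter the counts, but start windows were not looked up there.

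Orphan tiles were either nearly free of methylation or nearly full, and the 2 classes differed in which state was frequent. Of the 766 intragenic tiles, 585 (76.4%) had a mean level below 5% and 111 (14.5%) one above 80%. Of the 325 intergenic tiles, 122 (37.5%) were below 5% and 177 (54.5%) above 80%. Between 5 and 80% lay 70 of the intragenic and 26 of the intergenic tiles. The median level was 0.162% for intragenic and 84.0% for intergenic tiles, and 1.33% over all 36513 tiles. The 11108 other CpG-dense tiles, which lie within 5 kb of a gene end, were below 5% in 95.5% of cases and above 80% in 1.01%, with a median of 0.0724%.

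**Figure D1:**
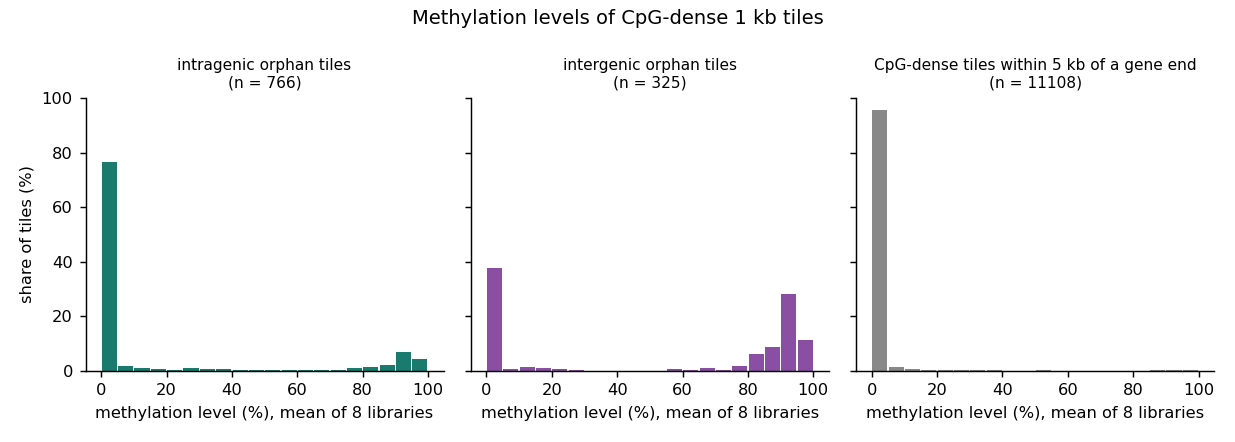
Share of tiles (y axis, %) by methylation level in steps of 5 points (x axis, mean of 8 libraries) for intragenic orphan tiles, intergenic orphan tiles and the CpG-dense tiles within 5 kb of a gene end. Below 5% lie 76.4%, 37.5% and 95.5% of the tiles, and the intergenic panel has its largest group above 80%.

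These contrasts were alike in every library. The mean level over intragenic tiles was 36.8 points below that over intergenic tiles (SD 0.118 over 8 libraries, from −37.0 to −36.6). The mean over all orphan tiles exceeded that over the other CpG-dense tiles by 25.8 ± 0.144 points (SD, n = 8). These SDs describe the spread between libraries and not the variety of the tiles. Without the tiles that hold a start window, the intragenic mean was 29.3 points below the intergenic one (chromosome 18 left out). When genes other than protein-coding and lncRNA ones, and gene models (symbols starting with Gm or LOC or ending in Rik), did not count as genes, it was 19.6 points below, over 973 intragenic and 714 intergenic tiles.

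High levels became more frequent with distance from the nearest gene end. Among CpG-dense tiles between genes, the share above 80% was 0.366% within 1 kb (273 tiles), 7.14% at 1 to 2 kb, 16.3% at 2 to 5 kb, 25.6% at 5 to 10 kb, 38.6% at 10 to 20 kb, 64.7% at 20 to 50 kb, 78.0% at 50 to 100 kb and 94.0% beyond 100 kb. Among those inside genes it was 0.391% within 1 kb (9458 tiles), 5.93% at 2 to 5 kb, 8.68% at 5 to 10 kb, 13.02% at 10 to 20 kb, 20.7% at 20 to 50 kb, 15.9% at 50 to 100 kb and 41.7% beyond 100 kb. The rise inside genes was not steady, and its last step rests on 24 tiles. None of the 50 intergenic tiles beyond 100 kb was below 5%. Their levels ran from 75.03 to 97.01%, and 14 of them lay more than 200 kb from any gene end, the farthest 477164 bp away. These 50 tiles were also not among the densest, with at most 55 seen CpGs.

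**Figure D2:**
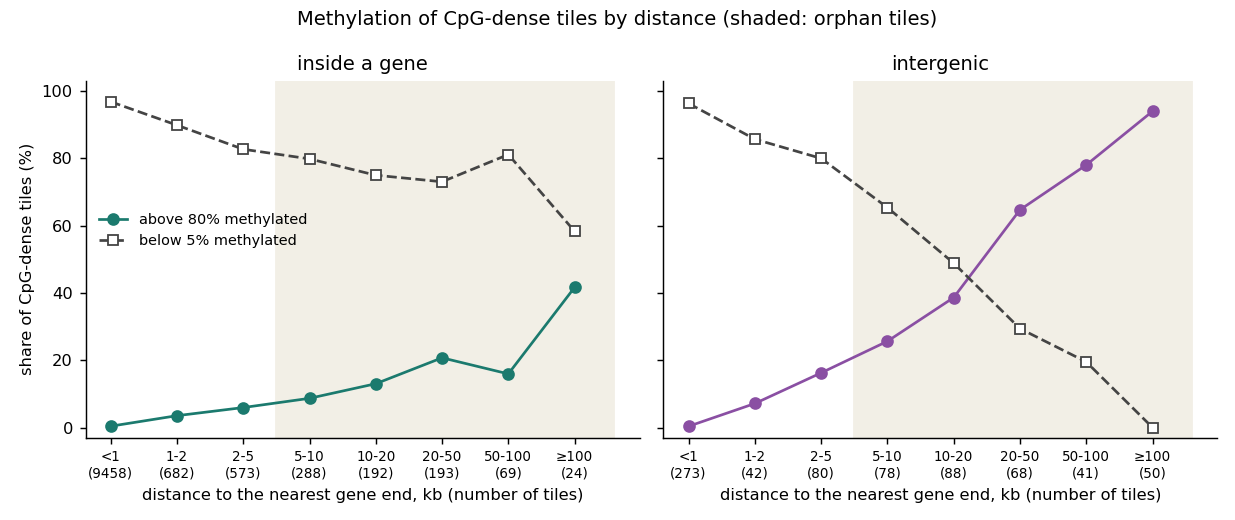
Share of CpG-dense tiles above 80% (filled circles) and below 5% methylated (open squares) by distance to the nearest gene end in kb, for tiles inside genes (left) and between genes (right), with orphan tiles shaded and tile numbers under the axis. Between genes the share above 80% climbs to 94.0% beyond 100 kb and the share below 5% falls to 0.

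On either side of the limits of the rule the values were as follows. Intragenic tiles 5 to 6 kb from a gene end (78, just inside) had a median of 0.0975%, and those at 4 to 5 kb (116, just outside) one of 0.163%. Intergenic tiles had 6 of 14 above 80% just inside and 4 of 12 just outside the distance limit. With 30 or 31 seen CpGs, 15 of 59 intragenic and 33 of 49 intergenic tiles were above 80%, and with 28 or 29, just under the limit, 30 of 83 intragenic and 40 of 63 intergenic tiles were.

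Tiles with more CpGs were less often methylated in both classes. Of intragenic tiles with 30 to 34 seen CpGs, 25.7% were above 80%, and of those with 60 or more, 3.10% (7 of 226). Of intergenic tiles the shares were 64.5% at 30 to 34 and 5% (1 of 20) at 60 or more, although still 39.5% at 50 to 59. The decline was not steady, with 27.2% at 35 to 39 seen CpGs inside genes and 61.5% at 40 to 49 between genes. Tiles near gene ends ran from 3.46% at 30 to 34 to 0.177% at 60 or more. At every CpG number the intergenic share was the highest of the 3 sets.

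Intragenic tiles that overlap the start window of a further transcript were low, although the start itself can lie just outside the tile. Of the 232 with a RefSeq start window, 228 were below 5%, 4 lay between 5 and 20%, and none was above; the highest, in the nuclear pore gene Pom121, had 8.19%. Of the 506 without a window, 333 were below 5%, 43 between 20 and 80% and 107 above 80%. The contrast was present at each CpG number, with 0 of 48 against 67 of 202 tiles above 80% at 30 to 39 seen CpGs, 0 of 76 against 33 of 197 at 40 to 59, and 0 of 108 against 7 of 107 at 60 or more. Without a window but within 1 kb of a start, 62 of 65 tiles were below 5%. Of the 149 windows with at least 3 measured CpGs, 142 averaged below 1% and 4 reached 5%: Tlcd4, Gsn (the actin-severing protein gelsolin, 8.76%), Afap1l2 (6.14%) and Celf5 (5.61%). The table of starts covers only part of the known transcripts, so a tile without a window may still hold a start.

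**Figure D3:**
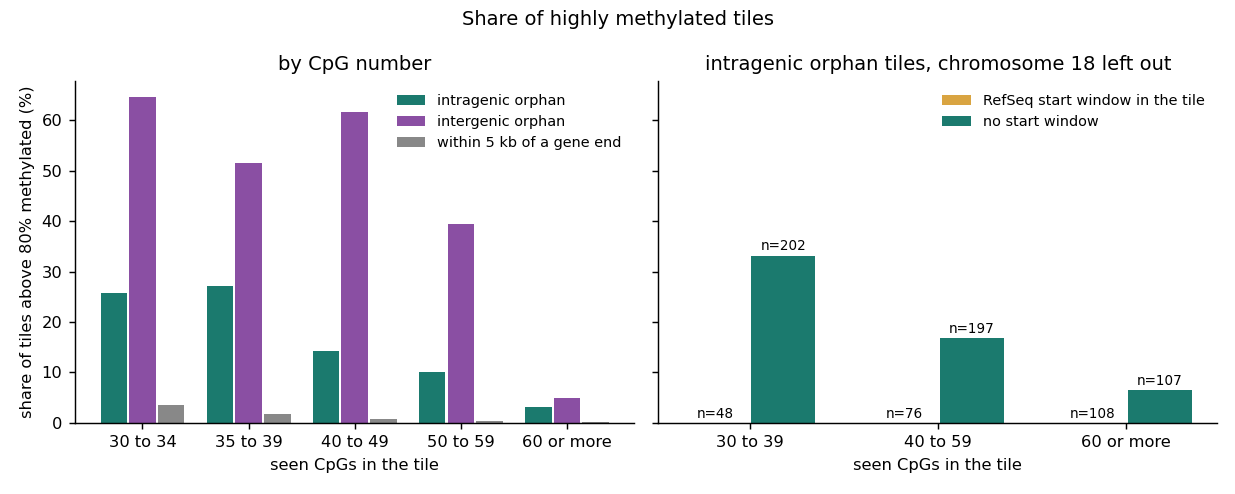
Share of tiles above 80% methylated (y axis, %) by the number of seen CpGs. On the left for intragenic orphan tiles, intergenic orphan tiles and CpG-dense tiles within 5 kb of a gene end, on the right for intragenic orphan tiles with and without a RefSeq start window (n above the bars). No tile with a start window is above 80%, against 67 of 202, 33 of 197 and 7 of 107 without one.

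Within the host gene, position went with level. Hosts whose strand the start table gives were used. With each host cut into 3 parts of equal length, 16 of 241 tiles (6.64%) in the part nearest the start were above 80%, 34 of 242 (14.0%) in the middle part, and 35 of 139 (25.2%) in the last part. Without the tiles that hold a start window the shares were 12.4, 23.4 and 30.2%. Tiles in protein-coding hosts were above 80% in 91 of 718 cases (12.7%), and those in lncRNA hosts in 17 of 43 (39.5%).

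Neighbouring tiles had like levels. The 1091 tiles formed 979 runs, of which 877 were single tiles, 93 pairs, 8 triplets and 1 a stretch of 4. That stretch, in Filip1 (a filamin-binding protein; chromosome 9, 79900001 to 79904000), was methylated throughout. Its first tile had 97.4, 95.8, 94.6 and 95.2% in restricted and 97.6, 95.8, 96.6 and 98.6% in unrestricted libraries, and the 4 tiles averaged 94.8 to 96.7%. A triplet nearest Grxcr1, a stereocilia protein of the inner ear, averaged 92.8%, between genes. The triplets in Zbtb46 (a zinc finger repressor), Ebf3, Runx2 (runt factor of bone), Pdgfb (a growth factor) and Shank1 (a synaptic scaffold) averaged 0.0336, 0.139, 0.0807, 0.810 and 1.61%. Measured tiles 1 to 2 kb from an intragenic tile above 80% had a median of 94.8% (40 tiles), those beside one below 5% a median of 0.165% (439 tiles). Beside intergenic tiles the medians were 93.2% (34 tiles) and 0.434% (68 tiles). Neighbours that are themselves orphan tiles are counted in these medians.

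Of the 110 hosts with at least 2 tiles, 79 had all of them below 5%, 7 all above 80%, and 11 had at least 1 of each: Fgf12, Lmtk3, Plec, Prdm11, Prkg1, Shroom3, Slc4a4, Ston2, Stox2, Zfhx3 and Zfp64. In Fgf12, an intracellular member of the fibroblast growth factor family, the tile at 28294001 of chromosome 16 had 95.4, 97.2, 94.3 and 98.2% in restricted libraries and 95.2, 94.1, 94.3 and 96.7% in unrestricted libraries. Its other 3 tiles, at 28445001, 28446001 and 28564001, averaged 0.0208, 0.0299 and 0.155%, and the last 2 hold start windows. The low and the high tiles of the gene do not overlap in any library. In Zfhx3, a zinc finger homeobox factor, a tile with 107 seen CpGs at 108704001 of chromosome 8 had no methylated read in any library, and one with 36 seen CpGs at 108950001 averaged 97.4%. In Shroom3, an actin-binding protein of apical constriction, the tile at 92898001 of chromosome 5 was at 0% and holds a start window, and those at 92941001 and 92942001 averaged 96.7 and 92.6%. The last one has 118 seen CpGs, the most of any tile above 80%, of which 17 were measured. Prkg1, a cGMP-dependent kinase, had 64 seen CpGs in both of its tiles, at 0.108 and 96.4%.

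Some gene lists were followed through the tiles. Of 44 intragenic tiles in 24 genes of developmental transcription factors (chosen by symbol, with Hox, Pax, Runx, Fox, Gata and like names, and without Zfhx3), 40 were below 5%, with a median of 0.168% against 0.162% over all intragenic and 1.33% over all tiles. The other 4 lay in Six2, Ebf4 (18.1%), Hoxd3 and Prdm11 (94.99%). Of 8 intergenic tiles nearest such genes 6 were below 5%, and those nearest Pou3f2 and Foxp2 averaged 95.8 and 95.7%. All 17 intragenic tiles in 13 genes of chromatin regulators were below 5% (median 0.0629%), as were all 5 intergenic ones nearest Cbx8 and Cbx5. Of 39 tiles in 28 genes of a list called synaptic and neuronal scaffold genes, 33 were below 5%. That list was chosen by symbol and takes in Kcn, Cacna1, Celf, Rbfox and Nav genes beside Shank, Dlgap, Nrxn and Ank ones. Not all of these are scaffold genes. Its single intergenic tile, nearest Kcnq1 and counted under imprinted genes as well, was also below 5%. Of 17 tiles in 12 signalling genes of the kidney 14 were below 5%. The exceptions among signalling genes were Axin2 (a Wnt pathway inhibitor and target, 95.2%), Jag2 (a Notch ligand, 82.7%) and a tile of Fgf12, and of 2 intergenic tiles of that list the one nearest Bmp5, a bone morphogenetic protein, averaged 91.4%. Imprinted genes had 2 intragenic tiles, in Begain (0.268%) and Grb10 (41.9%), and 2 intergenic ones, nearest Kcnq1 (0.0195%) and Cdkn1c (2.41%). The 4 cadherin tiles ranged from 0.281% in Cdh13 to 96.2% in Fat1. The shares below 5% are to be read beside the 76.4% of all intragenic tiles. They are also to be read beside the start windows, which go with low levels. Windows lay in 8 of the 17 chromatin regulator tiles, 13 of the 39 synaptic, 8 of the 44 transcription factor and 4 of the 17 signalling tiles. Of all intragenic tiles looked up, 232 of 738 held one.

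Among regulators of the kidney, Pax2 held 4 tiles. The tile at 44755001 of chromosome 19 had 0, 0.165, 0.484 and 0.213% in restricted libraries, and 0.107, 0, 0 and 0% in unrestricted libraries. The other 3 Pax2 tiles averaged 0.0562, 0.0741 and 0.448%. The single tile in Six2, the marker gene of the sorted cells and a keeper of the progenitor state, had 6.01, 5.03, 3.57 and 6.50% in restricted libraries, against 7.26, 5.50, 6.47 and 4.73% in unrestricted libraries (chromosome 17, 85680001 to 85681000; adjusted p = 0.822 by the moderated logistic test described with the diet comparison). Its CpGs ranged from 0.272 to 16.4%. Wnt9b, the signal from the ureteric bud that induces nephrons, had a tile at 0.241%. Ebf3, Gata4 and Runx2 held 5, 4 and 3 tiles, all below 5%. Of the listed transcription factor genes, Hoxd3 had an intragenic tile between 20 and 80%: that at 74736001 of chromosome 2 had 24.6, 27.6, 28.3 and 24.8% in restricted and 28.3, 29.2, 31.1 and 27.7% in unrestricted libraries, while the tile 4 kb on averaged 0.564%.

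The densest intergenic tiles were mostly low. Of the 20 intergenic tiles with 60 or more seen CpGs, 19 were below 5%. The 112 seen CpGs of the tile nearest D130051D11Rik (chromosome 15, 85671001 to 85672000) averaged 0.0634% over 58 measured ones. Tiles nearest the microRNA genes Mirlet7a-1 and Mir30d, each with 100 seen CpGs, averaged 0.0575 and 0.0440%. The tile nearest Irx5, an Iroquois homeobox factor, had 82 seen CpGs and no methylated read in any library, at 98545 bp from the nearest gene end. Those nearest Foxd1, a forkhead factor of the kidney stroma, and Cdkn1c, an imprinted cell cycle inhibitor, averaged 1.32 and 2.41%. The exception among the 20, nearest Gm7680 on chromosome 9, had 61 seen CpGs and 96.0%. Distance alone does not assign a tile to its nearest gene.

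Intermediate levels were uncommon, with 59 tiles between 20 and 80% (43 intragenic, 16 intergenic), none of them with a start window. A level is a mean over all sorted cells, so methylation of some cells or alleles and partial methylation of all cannot be told apart. In 8 of the 59 every measured CpG lay between 20 and 80%, while in 15 at least 1 CpG was below 20% and at least 1 above 80%. The former is more easily met by tiles with few measured CpGs, such as Crocc with 3. Grb10, an imprinted adaptor of growth factor receptors, had a tile of the first kind (chromosome 11, 12026001 to 12027000; 94 seen CpGs). Its levels were 43.3, 35.3, 36.6 and 45.7% in restricted and 53.1, 42.7, 34.7 and 43.8% in unrestricted libraries, and its 8 measured CpGs averaged 37.4 to 53.5%. They lie from base 774 to base 854 of the tile, so the same reads can cover them, and most of its seen CpGs were not measured. In Nod1, an innate immune receptor, all 17 CpGs averaged 20.2 to 62.6%. In Mdga1, a cell surface protein of neurons, 13 of 21 CpGs were below 20% and 4 above 80%, and in Amer2, a Wnt pathway regulator, 13 of 19 were below 20% and the highest had 77.3%. In both the low and the high CpGs lay at opposite ends of the tile. Crb2, a polarity protein, ranged from 12.4 to 72.8% over 36 CpGs.

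**Figure D4:**
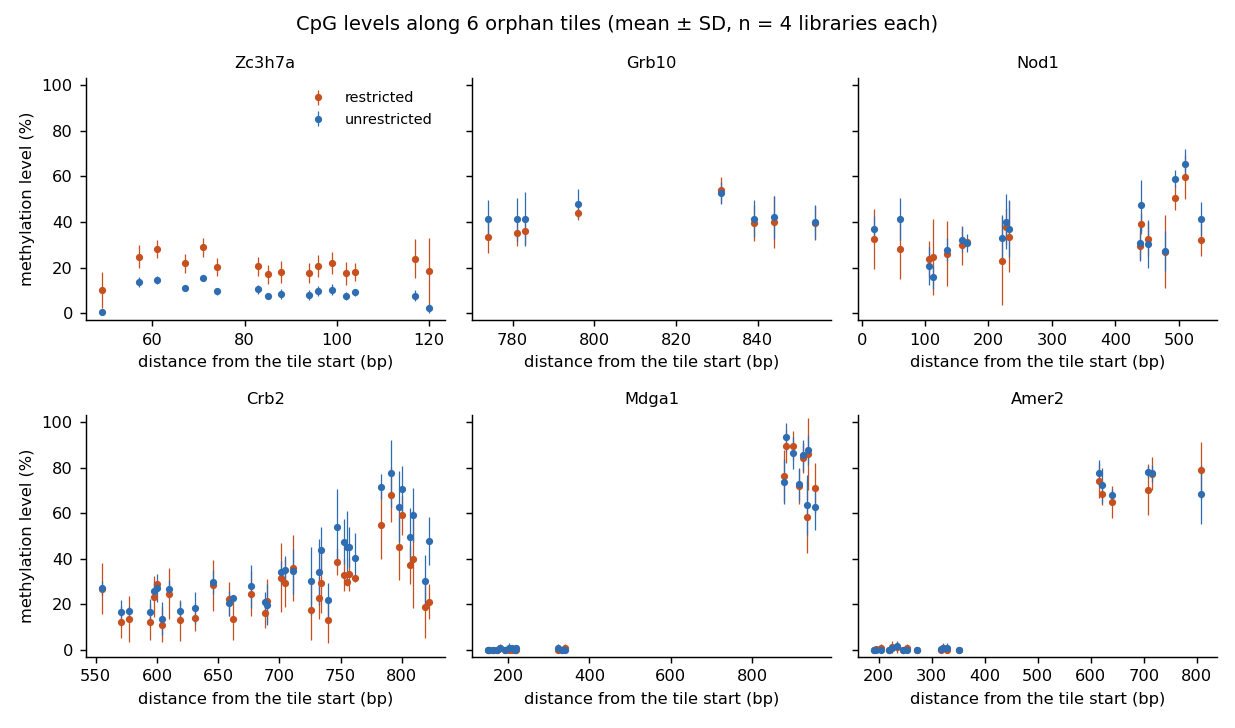
Methylation level (y axis, %) of each measured CpG along 6 intragenic orphan tiles, by distance from the tile start in bp, for restricted and unrestricted libraries (mean ± SD, n = 4 each). The 16 CpGs of Zc3h7a, close enough to share reads, are all higher in the restricted group. Averaged over all libraries of both groups, the Grb10 CpGs lie between 37.4 and 53.5%. Mdga1 and Amer2 pass from near 0 to high levels within the tile.

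Diet of the dam was tested in every tile with a logistic model of methylated and unmethylated reads, whose dispersion was moderated across all 33897 tiles that had both kinds of reads, and p-values were adjusted by Benjamini-Hochberg over these tiles. Of the 1034 orphan tiles tested, 1 passed an adjusted p of 0.05, against 6 of all tiles (0.0177%). At an unadjusted p of 0.05 there were 73 orphan tiles (7.06%), 37 lower and 36 higher in the restricted group, where all tiles gave 6.32%. In 16 orphan tiles (1.55%) the highest restricted library was under the lowest unrestricted one, against 1.26% of all tiles, and in 13 (1.26%) the lowest restricted library was over the highest unrestricted one, against 0.997%. These shares are close to those of all tiles. The median difference was −0.00379 points, with 522 tiles lower and 512 higher. The other 57 tiles were at 0% in every library and were not tested. As a limit, 3 reads of each tile's total, summed over CpGs and libraries, allow at most 0.654%. Since a read can count at several CpGs, this limit may be too low.

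Within each of the 2 classes, mean levels did not differ between the diets by more than the spread between libraries. Intragenic tiles averaged 16.8% ± 0.179 in restricted and 16.8% ± 0.132 in unrestricted libraries (SD, n = 4 each), a difference of −0.0581 points. Intergenic tiles averaged 53.6% ± 0.291 in restricted and 53.6% ± 0.247 in unrestricted libraries. The 59 tiles between 20 and 80% averaged 51.9% ± 2.07 in restricted and 53.4% ± 1.01 in unrestricted libraries, and the 8 of them with an unadjusted p under 0.05 (13.6%) were all lower in the restricted group. The lean to lower levels was general to this band: of all its 5314 tiles, 461 (8.68%) had an unadjusted p under 0.05, 324 of them lower and 137 higher. These 5314 tiles averaged 52.8% ± 1.04 in restricted and 53.6% ± 0.729 in unrestricted libraries (SD, n = 4 each). In restricted libraries 1 and 2 the reads lean to less methylated CpGs, so that the mean weighted by reads less the unweighted mean over all tiles is −2.24 and −3.28 points, where the other 6 libraries lie between −0.575 and 0.817. In orphan tiles this quantity was 1.61 and −0.628 points in these 2 libraries, and between 3.79 and 6.35 in the other 6. Without these 2 libraries the difference in the 59 tiles was −0.129 points, in place of −1.42. It was 0.272 in place of −1.27 in the 43 intragenic tiles, and −1.21 in place of −1.83 in the 16 intergenic ones. Tiles of this band near gene ends gave −1.05 in place of −1.85, and all 5314 tiles −0.0594 in place of −0.780. Whether the lean bears on these levels was not tested.

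The called tile lies in Zc3h7a, a CCCH zinc finger protein that binds RNA (chromosome 16, 11144001 to 11145000). It had 27.4, 19.4, 17.97 and 18.4% in restricted libraries and 11.4, 10.1, 8.62 and 8.68% in unrestricted libraries. All restricted libraries were above all unrestricted ones, by 11.1 points on average (20.8% ± 4.45 and 9.71% ± 1.34; SD, n = 4 each; adjusted p = 0.0111 in the moderated logistic test). Each of its 16 measured CpGs was higher in the restricted group. They lie from base 49 to base 120 of the tile, closer together than a read of 100 bases is long. The same reads can cover them, so their agreement is not separate evidence. The tile had 2564 to 16451 reads per library summed over its CpGs, where the median orphan tile has 444. Single CpGs had 70 to 1123 reads per library, and they are among those of extreme coverage. The call ended without unrestricted library 4 (adjusted p = 0.0685, with a difference of 10.7 points) and with limma on M-values (adjusted p = 0.709), and the tile could not be tested once CpGs of extreme coverage were left out.

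Of the 5 other tiles with the most reads none passed, and they did not share a direction. The tile shared by Cmss1 and Filip1l (chromosome 16, 57391001 to 57392000; 11985 to 27303 reads) had 18.5, 14.2, 15.9 and 18.2% in restricted and 10.5, 16.4, 8.34 and 10.2% in unrestricted libraries (adjusted p = 0.614, moderated logistic test). The tile of the gene model Gm36876 (chromosome 11, 109011001 to 109012000; 8432 to 30939 reads) had 10.3, 8.39, 13.6 and 10.8% in restricted and 8.28, 9.04, 5.89 and 6.01% in unrestricted libraries (adjusted p = 0.387). In both the groups overlap. The deeply covered tiles nearest Scn3b and Grxcr1 averaged 93.2% in both groups. The tile nearest Gm32719 at 20196001 of chromosome 12 leaned the other way, with 0.269% in restricted and 0.588% in unrestricted libraries (adjusted p = 0.753, moderated logistic test). Whether copies of these stretches elsewhere add reads was not tested.

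The lowest p-values after Zc3h7a belonged to intergenic tiles on chromosome 12. That nearest Gm9292 (23189001 to 23190000; 1011 to 2897 reads) had 0.518, 1.00, 1.15 and 0.391% in restricted and 1.30, 3.33, 3.66 and 2.67% in unrestricted libraries. That nearest Gm32719 (20197001 to 20198000; 1773 to 3621 reads) had 0.465, 0.159, 0.556 and 0.451% in restricted and 1.02, 1.19, 1.65 and 1.07% in unrestricted libraries. In both, every restricted library was below every unrestricted one, and neither passed (adjusted p = 0.0917 and 0.112, moderated logistic test). Grm4, a metabotropic glutamate receptor, came next among intragenic tiles, with 21, 18, 24 and 23% in restricted and 26, 32, 29 and 32% in unrestricted libraries (chromosome 17, 27502001 to 27503000; 160 to 390 reads; adjusted p = 0.303). Intergenic tiles nearest Gm22473 and Gm21811 had adjusted p-values of 0.628 each.

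**Figure D5:**
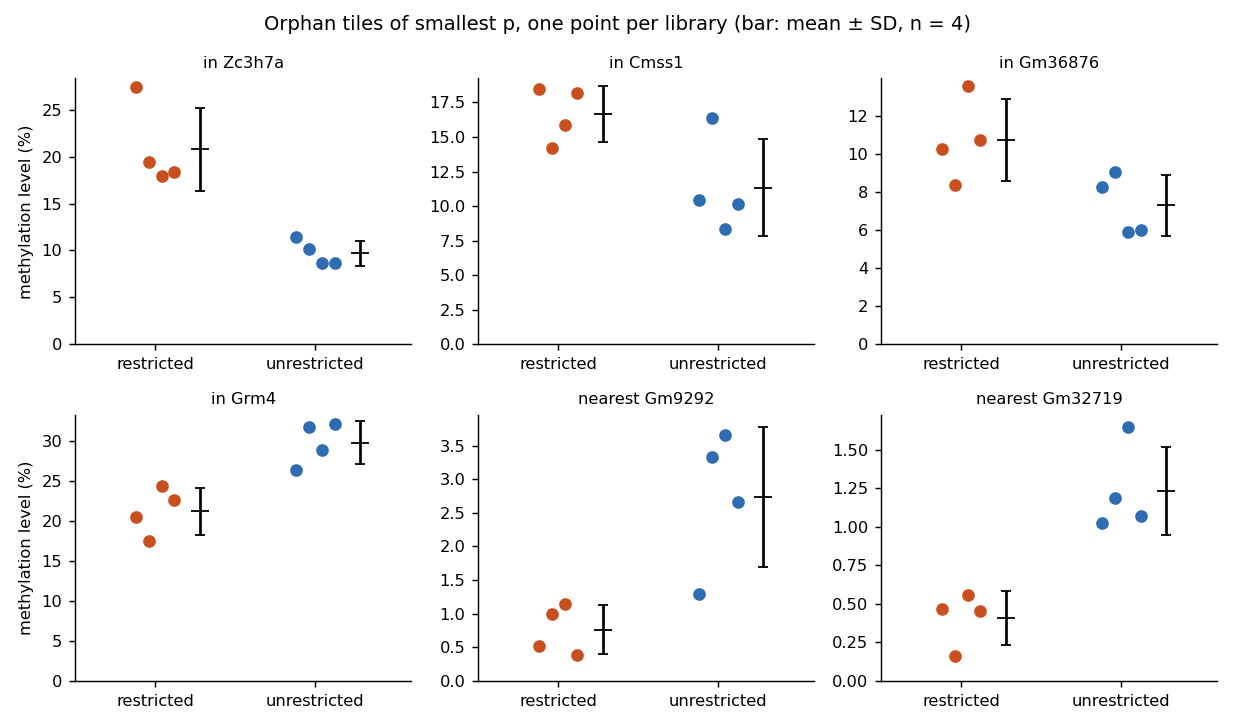
Methylation level (y axis, %; scales differ and start at 0) of 6 orphan tiles with small p in the diet test, 1 point per library, restricted left and unrestricted right, with the mean ± SD (n = 4) beside the points. The groups do not overlap in Zc3h7a, Grm4 and the tiles nearest Gm9292 and Gm32719, and overlap in Cmss1 and Gm36876.

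Apart from Zc3h7a, the largest differences in level were not those of smallest p. Intragenic tiles in Gm33752 (80.4% ± 7.14 in restricted and 71.2% ± 11.4 in unrestricted libraries), Bsn (a presynaptic scaffold, 64.6% ± 6.26 and 75.1% ± 9.34) and Crb2 (29.02% ± 6.92 and 38.0% ± 7.42) spread widely within groups, and so did the intergenic tile nearest Aasdhppt, with 65.3, 23.6, 64.7 and 50.6% in restricted and 62.3, 57.8, 62.4 and 70.2% in unrestricted libraries. None passed. Gene lists held no called tile. Their smallest p belonged to Lhx6, a LIM homeobox factor, whose tile had 4.67, 0.302, 0 and 0% in restricted libraries and 0% in all unrestricted ones, so that 1 library carries its mean (adjusted p = 0.737, moderated logistic test).

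The precision of a level depended on its height. Over the 8 libraries the median SD of an orphan tile was 0.134 points below 5% and 1.82 points above 80%, where binomial counting alone gives 0.135 and 1.66. In tiles of 5 to 20% it was 2.72 against 1.49 points, and in those of 20 to 80% it was 4.81 against 3.13 points. Reads are not free of PCR copies, and a read counts at each CpG it covers as if these were separate draws, so these counting errors are lower limits. Whether libraries varied beyond the true counting error was not tested.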

How the data were processed

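Reduced representation bisulfite libraries of sorted nephron progenitors, 4 per diet group, were grouped by the sample labels. The deposited files hold, for each CpG cytosine, the count of reads and the percent of them called methylated and unmethylated, as the authors made them. Bismark 0.13.1, Trim Galore 0.3.3, methylKit, FastQC and cutadapt are listed, with mm10 as build and no settings, in the submitters' processing notes. Methylated reads were recovered from count and percent, strands of each CpG were added, and 1 kb tiles were formed from CpGs that every library covered by at least 10 reads, keeping tiles with at least 3 such CpGs. Gene positions and start windows came from RefSeq tables of GRCm38.p6. A tile's level is methylated reads divided by all reads, both summed over its measured CpGs, and its mean is over libraries. Read depth (median 444 reads per orphan tile and library) sets the precision, and PCR copies cannot be removed.

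Diet was tested by logistic regression with a moderated dispersion not allowed under 1, a port of limma's squeezeVar in Python 3.11.15 (numpy 2.4.6, scipy 1.17.1, pandas 2.3.3), checked on simulated data. The simulation gave every tile the same overdispersion and set changes only in tiles of intermediate level. It therefore does not cover tiles whose libraries spread more than that, or changes at low or high levels. Alternatives used limma 3.58.1 on M-values with a pseudocount of 1, edgeR 4.0.16 in R 4.3.3, other minimums, distances and grids, and left out libraries. Members, lists and rules were chosen with earlier results of these data known. Named tiles are the called ones, those of smallest p, highest level, level nearest 50%, most CpGs and largest difference per class, the longest runs and the smallest p per gene list. The 5 start windows printed and the hosts described beside them were chosen after their values were seen. Tiles on chromosome 18 are counted but not named. Exons, repeats and sex chromosomes were not analysed here.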

Additional observations from a re-analysis of the deposited data

Results flagged for a closer look

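In each group of 4 libraries, a value was singled out when its gap to the nearest of the others, as a share of the group's range, exceeded Dixon's 95% critical value for 4 samples. Of 98 groups examined, 13 had such a value. Chance alone gives about 1 in 20 only where values are normally distributed. Near 0 this fails, because a group with 3 libraries at 0% and 1 above is always singled out. Many tiles were also named for their values, so the 13 cannot be set against that rate. In Zc3h7a, restricted library 1 had 27.4%, above the other 3 restricted libraries (17.97 to 19.4%), and all 4 were above the unrestricted libraries. Tiles of high or intermediate level with a single outlying library were Ptprt (97.8% in unrestricted library 4), Crocc (55.6% in restricted library 3), Bsn (74.0% in restricted library 3) and the tile nearest Tlx1 (78.3% in unrestricted library 3). In tiles near 0, a single library held nearly all the methylated reads of its group. These were Lhx6 (4.67% in restricted library 1), Irs1 (3.83% in restricted library 2), Dnmt3a (0.0656% in restricted library 1 and 0.185% in unrestricted library 4), the tile nearest Mirlet7a-1 (0.235% in restricted library 1), the tile nearest Kcnq1 (0.156% in restricted library 1), and 2 tiles of the run in Iqschfp (0.763% in restricted library 1 and 0.277% in unrestricted library 1). The cause was not tested.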

How the results depend on the processing

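The count of called orphan tiles, 1, was between 0 and 3 when each library was left out in turn, being 0 without unrestricted library 4, 2 without unrestricted library 1, and 3 without restricted library 3 or unrestricted library 2, and the count over all tiles, 6, was between 0 and 24 (24 and 20 without restricted library 3 and unrestricted library 2, 1 and 2 without restricted libraries 2 and 4, 2 and 0 without unrestricted libraries 3 and 4). Leaving out both restricted libraries 1 and 2 gave 2 orphan tiles. The replicate block gave 0 orphan tiles and 0 of all tiles (18 and 538 at an unadjusted p under 0.05; adjusted p = 0.932 for Zc3h7a, with the same difference). Same-numbered libraries did not deviate together (correlations from −0.0954 to 0.0201 over 13639 tiles), and differently numbered ones gave −0.0468 to 0.0712. These correlations show no pairing but do not settle whether the numbers pair libraries, and the labels do not say. With limma on M-values the counts were 0 and 0 (72 orphan tiles and 2173 of all at an unadjusted p under 0.05), with the prior from deeper tiles 1 of all tiles, and with edgeR's quasi-likelihood test 6 orphan tiles (Zc3h7a, Gm9292, Gm32719, Lhx6, Pde1c and Dysf) and 110 of all. In Lhx6 and Pde1c the restricted SD exceeded the restricted mean (1.24% ± 2.29 and 4.80% ± 6.72), and in Dysf the unrestricted SD exceeded the unrestricted mean (1.43% ± 2.86). In Zc3h7a, Gm9292 and Gm32719 the SDs of both groups were below the means. At a distance of 10 kb, and without CpGs of extreme coverage, no orphan tile was called (43 and 74 at an unadjusted p under 0.05, and 72 without unrestricted library 4), the Zc3h7a tile being no member at 10 kb and not measured without those CpGs. The Zc3h7a difference was between 8.86 and 11.9997 points when each library was left out, and its tile was called in 10 of 13 alternatives, with adjusted p from 2.07e-06 to 0.932. Of the other named tiles, Irs1 (0.840 points) reversed to −0.117 points without restricted library 2 and without restricted libraries 1 and 2, and lay between −0.117 and 1.16 points over the libraries left out. The difference between diets in mean level of either class moved by less than the spread between libraries in every alternative run.

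The intragenic minus intergenic difference kept its sign throughout. It was −40.3 and −33.1 points at 5 and 20 reads, −31.4 and −36.1 at 20 and 40 seen CpGs, −32.6 and −42.2 at 2 and 10 kb, −25.6 with at least 10 measured CpGs, −35.5 on a shifted grid, −19.6 without gene models, −36.6 without CpGs of extreme coverage, and −29.3 without start windows and chromosome 18, an alternative chosen after seeing the data. The orphan minus other CpG-dense difference was 34.2 and 16.9 points at 5 and 20 reads, 36.4 and 17.53 at 20 and 40 seen CpGs, 19.7 and 31.9 at 2 and 10 kb, 12.4 with at least 10 measured CpGs, 23.9 on a shifted grid and 18.6 without gene models. How large both contrasts are thus depends on the rule, and on which CpGs RRBS reads reach.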
